A study of Mus musculus with 10 samples.

Results

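Proline and ornithine are made from and broken down to the same intermediate, and the 5 genes described here encode the enzymes around it. They are Aldh18a1, Pycr1, Oat, Prodh and Aldh4a1, found by symbol among the 21849 genes of the count table, and each had 1 row. The group was proposed because Pycr1 had passed the test between the diets in these same tumours, so the diet values of the group are a description of these tumours and support nothing by themselves. Of the 5, 3 had reads and were tested (Aldh18a1, Pycr1 and Prodh), and 2 were listed at 0 in every tumour (Oat and Aldh4a1).

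RNA was sequenced from 10 tumours of CT26 cells, a colon carcinoma line of the BALB/c mouse, implanted under the skin of BALB/c mice, which were 5 weeks old at the start. In 5 of them the mice ate a diet from which arginine had been removed at equal calories, and in the other 5 a normal diet. The diets began 1 week before the cells were implanted, and tumours were taken on day 20. The labels name no sex and no further treatment, and they do not say that each library came from a separate mouse, so p-values measure the spread between these libraries.

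Glutamate is turned into pyrroline-5-carboxylate in mitochondria by P5C synthase, the product of Aldh18a1, and ornithine reaches the same compound through ornithine aminotransferase, the product of Oat. Reductases such as Pycr1 and Pycr3 turn it into proline, using NADPH or NADH. Proline dehydrogenase, the product of Prodh, takes proline back, and Aldh4a1 carries the intermediate on to glutamate. Because ornithine is what arginase leaves of arginine, the same 5 enzymes connect arginine with proline. Pycr1 and Aldh18a1 are known to respond to amino acid shortage through the transcription factor ATF4.

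The promoters of the 2 synthesis genes are shown because only that of Pycr1 holds the ATF4-type element among the 5 members. The stretches end where the outermost annotated transcript begins, and come from RefSeq on GRCm38.p6, the same assembly as mm10. Capitals mark the element TGATGNAAN in Pycr1 (chr11:120643770-120643998, minus strand) and the E-box CACGTG in Aldh18a1 (chr19:40588464-40588713, minus strand).
Pycr1: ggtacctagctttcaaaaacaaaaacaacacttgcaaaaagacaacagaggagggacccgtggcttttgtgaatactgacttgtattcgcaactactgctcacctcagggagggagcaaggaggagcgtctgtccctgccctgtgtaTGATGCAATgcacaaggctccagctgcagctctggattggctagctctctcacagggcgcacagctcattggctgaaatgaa
Aldh18a1: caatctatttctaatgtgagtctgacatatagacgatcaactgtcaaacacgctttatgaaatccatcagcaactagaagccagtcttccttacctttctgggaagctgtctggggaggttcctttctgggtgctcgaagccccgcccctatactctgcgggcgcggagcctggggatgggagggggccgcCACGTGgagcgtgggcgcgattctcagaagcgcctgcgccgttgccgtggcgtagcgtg

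The search covered both strands of the RefSeq windows, which run from 250 bases before to 50 bases after each gene's start, and all 5 members had 1 window. TGATGNAAN stood in the Pycr1 window as TGATGCAAT and in none of the other 4. It begins 103 bases before the RefSeq start, which lies beyond the end of the printed Pycr1 stretch. TGATGNAAN is found in 3.96% of 32817 windows and in the exact form TGATGCAAT in 0.192% (63 windows). CACGTG stood in the Aldh18a1 window alone, 59 bases before the start, and is found in 7.15% of windows. Of the 39 genes of the amino acid response list with a window, 15 (38.5%) held TGATGNAAN, against 4.50% of all genes with a window. Among those 15 were Asns, which held TGATGAAAC 23 bases before its start, and Chac1, which held TGATGCAAC 194 bases before it. A match says only that these letters are there.

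On mm10 the genes lie on 5 different chromosomes. Aldh18a1 (ENSMUSG00000025007.13) spans positions 40550257 to 40588463 of chromosome 19, Pycr1 (ENSMUSG00000025140.15) 120635712 to 120643769 of chromosome 11 and Prodh (ENSMUSG00000003526.12) 18060357 to 18090203 of chromosome 16. Oat (ENSMUSG00000030934.9) spans 132557478 to 132576398 of chromosome 7 and Aldh4a1 (ENSMUSG00000028737.15) 139622866 to 139649690 of chromosome 4. These are whole gene bodies of protein-coding genes, exons and introns together.

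The libraries held 12013178 to 31530123 counts each, and 12929 genes were tested. In bulk tumours, fewer cells of a type and less RNA per cell cannot be told apart. Summed transcripts of 16 skeletal muscle markers, 1 of them at 0 everywhere, lay between 10.4 and 8958 CPM on the deficient diet, and between 11.3 and 771 CPM on the normal one (CPM is a gene's counts scaled to a common library total with TMM factors). They were highest in deficient replicates 3 and 4 and normal-diet replicate 4. Mitochondrially encoded genes took 9.97% of counts in deficient replicate 3 and 1.67% to 4.44% elsewhere. Summed erythroid markers (7 genes, of which Alas2 was listed at 0 everywhere) ran from 56.3 to 106 CPM on the deficient diet and, in normal-diet tumours, from 101 to 603 CPM. Their part in the diet values of the members was not tested. Of the epithelial markers of colon carcinoma, Krt18 ran from 4.15 to 20.4 CPM, whereas Epcam stayed at or under 0.486 CPM and Cdx2 at or under 0.673 CPM.

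Ordered by the route to proline, P5C synthase comes first. Aldh18a1 had 256, 315, 216, 230 and 320 CPM in deficient replicates 1 to 5, and 205, 193, 218, 191 and 224 CPM in normal-diet replicates 1 to 5. Deficient replicates 2 and 5 were the highest of the 10, and 4 of the 5 deficient tumours lay above the highest normal-diet tumour, replicate 5. Deficient replicate 3, the one richest in muscle and mitochondrial transcripts, lay inside the normal-diet range, so the diets overlapped. The means were 267 ± 47.9 and 206 ± 14.5 CPM (SD, n = 5 each), with a log2 fold change of 0.38 (SE 0.13), and the gene did not pass over all genes (adjusted p = 0.548 by edgeR's quasi-likelihood test). The spread between tumours was wider on the deficient diet, with a coefficient of variation of 17.9% against 7.03%, a difference that was not tested.

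Pycr1, the mitochondrial reductase that makes proline, was the member whose diets stood apart. It had 19.9, 18.2, 17.5, 17.8 and 21.7 CPM in deficient replicates 1 to 5, from 301 to 627 counts each. In normal-diet replicates 1 to 5 it had 8.31, 9.36, 7.92, 10.7 and 9.67 CPM, from 115 to 209 counts each. Every deficient tumour lay above every normal-diet tumour, and the lowest deficient value was 1.64 times the highest normal-diet value. The fold was 2.07 (log2 fold change 1.05, SE 0.14, 95% interval 0.79 to 1.32), and its p was the third smallest of the 12929 genes (adjusted p = 0.0158 by edgeR).

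Pycr1 was thus 1 of 3 tested members with adjusted p under 0.05, where the share over all genes tested was 0.0541% (7 genes, all higher). It was also the 1 tested member whose diets did not overlap, against 1.65% of all genes (0.835% higher and 0.812% lower with arginine removed). The log2 fold change lay above 0 for all 3, as it did for 50.3% of all genes. Since Pycr1 was chosen through this comparison, nothing is read from those counts. The coefficient of variation of Pycr1 was 9.18% on the deficient and 12% on the normal diet. A small spread within a diet helps a gene to pass this test, so nothing is read from it either. Of all genes tested, 142 had a larger log2 fold change. Without deficient replicate 1, 2 or 5, or without normal-diet replicate 1, 2 or 3, Pycr1 did not pass (adjusted p = 0.0631 to 0.103 by edgeR), while its log2 fold change stayed between 0.998 and 1.11 over all 10 fits that left out 1 library. Without the 3 libraries richest in muscle transcripts it was 1.18 (SE 0.16, adjusted p = 0.0303 by edgeR).

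**Figure D1:**
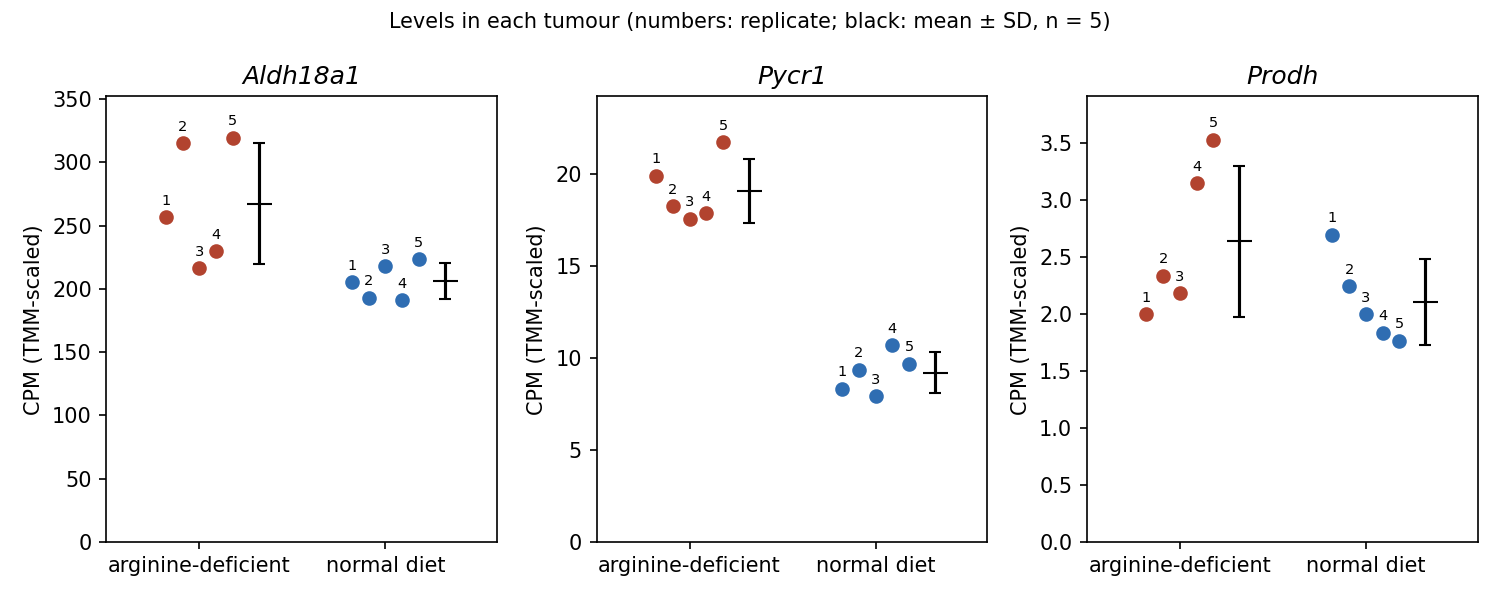
CPM of Aldh18a1, Pycr1 and Prodh in each tumour (vertical axes from 0), by diet; each numbered point is 1 tumour and the black bar is the mean with its SD (n = 5). Only for Pycr1 do the diets not overlap, with 17.5 to 21.7 CPM on the deficient and 7.92 to 10.7 CPM on the normal diet; Oat and Aldh4a1 are not drawn, being listed at 0 in all 10 tumours.

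Prodh, the enzyme that opens proline breakdown, was the member with the fewest reads of those detected, 21 to 73 counts per library. It had 2.00, 2.34, 2.18, 3.15 and 3.53 CPM in deficient replicates 1 to 5, and 2.70, 2.25, 2.00, 1.84 and 1.77 CPM in normal-diet replicates 1 to 5. Deficient replicates 4 and 5 were above every normal-diet tumour and the other three were not. The log2 fold change was 0.31 (SE 0.24, 95% interval -0.16 to 0.78, adjusted p = 0.943 by edgeR), so neither no change nor a rise as large as 1.5-fold lies outside the interval. Of its exonic bases 5.14% lie inside another gene's body, that of Dgcr6.

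Oat and Aldh4a1 were listed at 0 in all 10 tumours, and no level of either can be given. Every exonic base of Oat lies inside the annotated body of Fgfr2, which had 6579 counts in all, and every exonic base of Aldh4a1 inside that of the gene model Gm21969. Of the 1450 protein-coding genes of the table with all exonic bases inside another gene's body, 85.4% were at 0 in every library, against 19.0% of the 13978 with none. The sources used here do not say how reads shared by 2 genes were counted, so a 0 is read as listed at 0 and not as absent. The steps from ornithine to the intermediate and from the intermediate to glutamate were therefore not measured.

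Levels can be compared between genes only per length, here as CPM per kilobase of exonic sequence (RPKM). By this scale P5C synthase stood far above both other detected members, at 65.7 ± 11.8 RPKM on the deficient and 50.6 ± 3.56 RPKM on the normal diet for Aldh18a1 (SD, n = 5 each). Pycr1 averaged 4.84 ± 0.444 and 2.33 ± 0.280 RPKM, and Prodh 0.339 ± 0.085 and 0.271 ± 0.048 RPKM. The order Aldh18a1, Pycr1, Prodh held in each of the 10 tumours, and the ranges of neighbours did not overlap: 46.9 to 78.5 RPKM, 2.01 to 5.51 RPKM and 0.227 to 0.453 RPKM. Within a tumour, Aldh18a1 stood at 11.9 to 16.7 times the Pycr1 level on the deficient diet and at 17.3 to 26.6 times on the normal diet, 2 ranges that did not overlap. Pycr1 stood at 11.2 to 19.7 times the Prodh level on the deficient diet and at 6.10 to 11.5 times on the normal diet, 2 ranges that did. Both ratios hold Pycr1, which was chosen through the diet comparison, so nothing is read from how they differ between the diets.

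Pycr3 (named Pycrl in the annotation), the cytosolic paralogue of Pycr1, stood above it per length in every tumour. Pycrl averaged 18.8 ± 3.57 and 20.1 ± 3.80 RPKM on the deficient and normal diet (SD, n = 5 each), and over all tumours lay between 14.6 and 24.7 RPKM, a 1.70-fold spread. The log2 fold change of Pycrl was -0.09 (SE 0.17, adjusted p = 0.998 by edgeR), and the difference between Pycr1 and Pycrl was not tested.

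Libraries differed in how the levels of genes went with their content of G and C, and the cause was not tested. In deficient replicate 3 and normal-diet replicates 2 and 4 the slopes were -0.48, -0.30 and -0.21 log2 units per 10 percentage points of GC content, against 0.03 to 0.33 in the other 7. The longest transcripts of Aldh18a1, Pycr1 and Pycrl are 53.7%, 53.8% and 57.3% GC. Pycr1 was not low in those 3 libraries relative to the others of their diet except in deficient replicate 3, where it was lowest by a small margin (17.5 CPM against 17.8 CPM in the next). Pycrl was the lowest of its diet in deficient replicate 3 (14.6 RPKM) and in normal-diet replicate 2 (15.5 RPKM). Aldh18a1 was the lowest of its diet in deficient replicate 3 (216 CPM) and in normal-diet replicate 4 (191 CPM). The part of GC content in the values of Pycrl and Aldh18a1 was not tested. With these slopes and those on gene length added to the model, a choice made with the results known, the log2 fold change of Pycr1 was 1.05 (SE 0.12, adjusted p = 0.00973 by edgeR).

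**Figure D2:**
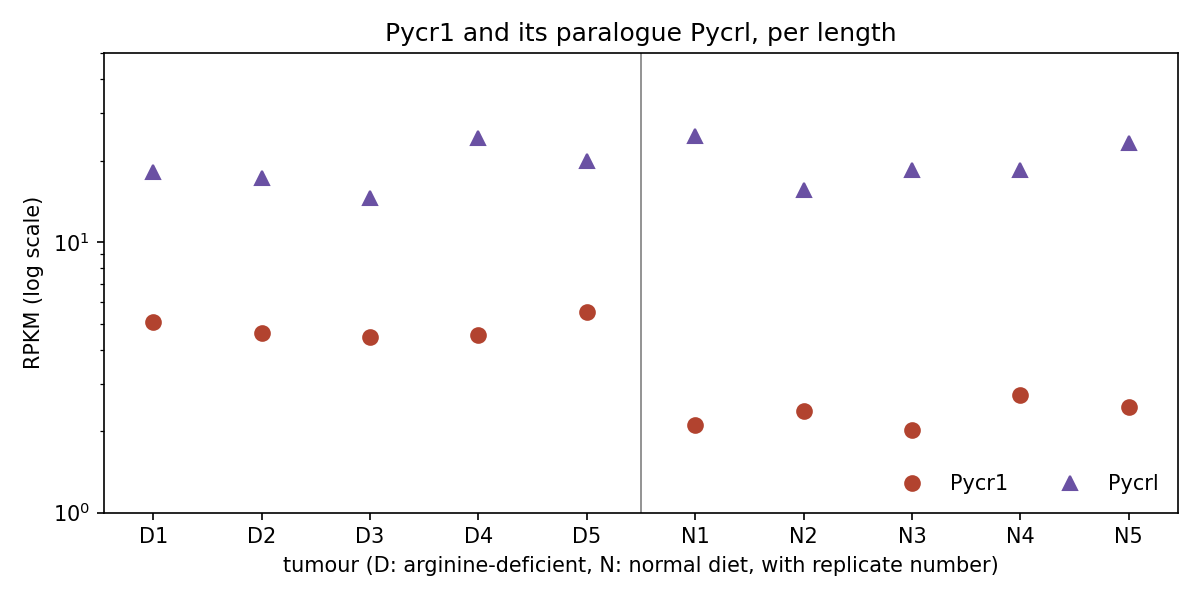
RPKM on a log axis of Pycr1 and its paralogue Pycrl in each tumour, deficient diet (D) left and normal diet (N) right of the line. Pycr1 lies below Pycrl in all 10 tumours, at 4.46 to 5.51 RPKM on the left and 2.01 to 2.71 RPKM on the right, while Pycrl has about the same mean on both diets.

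Around the pathway, 17 related enzymes and carriers were looked at beside the members, and 14 of them were tested. None passed over all genes, 8 had a log2 fold change above 0 and 6 below, and the median was 0.08 against 0.00 over all genes tested. Unadjusted, 2 were higher (Arg1 and Glul) and 1 lower (Gls2) at p under 0.05 by edgeR, 14.3% and 7.14% of the 14, where 3.54% of all genes were higher and 3.19% lower (6.74% in all). The arginase gene Arg1, which makes ornithine from arginine, averaged 143 ± 83.8 and 71.2 ± 29.3 CPM (SD, n = 5 each), a log2 fold change of 1.0 with SE 0.37 (edgeR, adjusted p = 0.604). Its deficient replicate 2, at 288 CPM, stood far above the other four. Summed macrophage markers ran from 1802 to 2024 CPM on the deficient and from 1381 to 2023 CPM on the normal diet, and their part in Arg1 was not tested. Arg2, the mitochondrial arginase, had 0.33 (SE 0.18), and Slc25a15, which carries ornithine into mitochondria, 0.29 (SE 0.18). Odc1, which sends ornithine to polyamines, had 0.18 (SE 0.14).

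On the glutamate side, Glul, glutamine synthetase, averaged 188 ± 24.1 and 144 ± 21.0 CPM (SD, n = 5 each), a log2 fold change of 0.38 with SE 0.13 (edgeR, adjusted p = 0.512). Gls2, a glutaminase, was the 1 related gene whose diets did not overlap, where 1.65% of all genes did not. Its mean was 5.53 ± 0.239 CPM with arginine removed, against 8.16 ± 1.34 CPM (SD, n = 5 each), a log2 fold change of -0.56 with SE 0.16 (edgeR, adjusted p = 0.403). Glud1, glutamate dehydrogenase, had -0.06 (SE 0.09). The aspartate aminotransferases Got1 and Got2 had 0.24 (SE 0.16) and 0.14 (SE 0.11). Gatm, which uses arginine for creatine, had -0.18 (SE 0.24) and Hoga1, of hydroxyproline breakdown, -0.02 (SE 0.29). The hydroxyproline dehydrogenase gene Prodh2 had 6 counts in all and was not tested, and Otc and Slc25a2 were listed at 0.

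**Figure D3:**
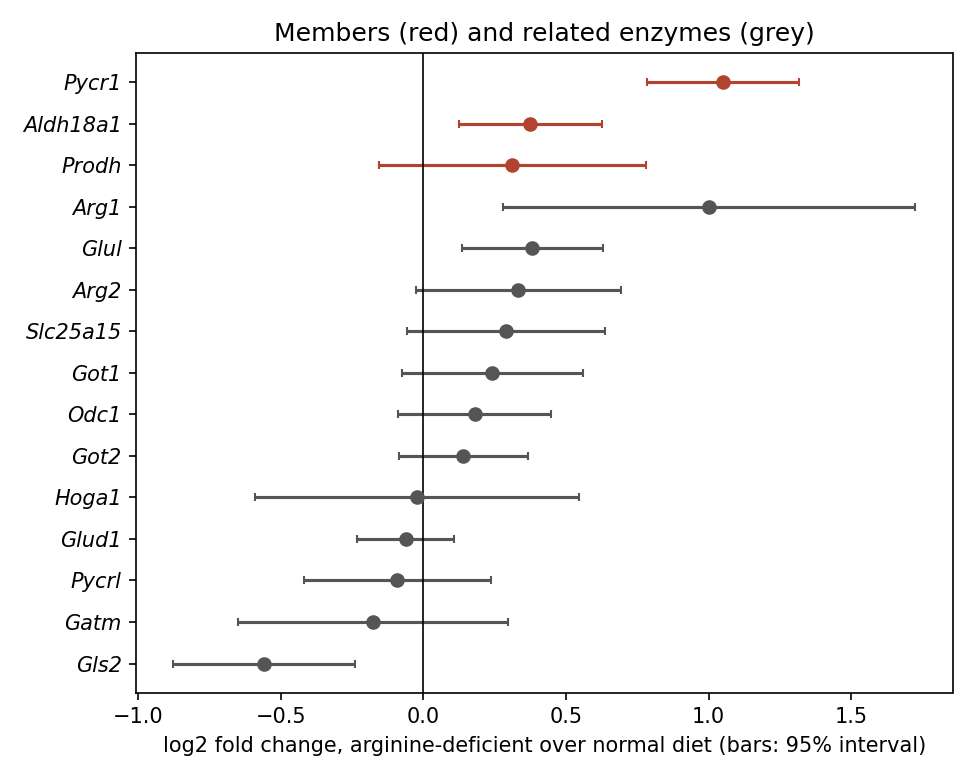
Log2 fold change (deficient over normal diet) with 95% intervals for the 3 tested members (red) and 12 of the 14 tested related enzymes (grey). Pycr1 at 1.05 has its whole bar right of 0, and Arg1 at 1.0 has a much wider one, from 0.28 to 1.73. The bars of Aldh18a1 and Glul also lie right of 0 and that of Gls2 left of it, but of these genes only Pycr1 passed over all genes.

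Genes that use or supply proline did not pass either: of 19 tested, 12 lay above 0, and the median was 0.07. P4ha2, a subunit of the prolyl hydroxylase that acts on collagen, averaged 88.8 ± 29.2 and 55.9 ± 7.58 CPM (SD, n = 5 each), a log2 fold change of 0.67 with SE 0.23 (edgeR, adjusted p = 0.548). Prep, a peptidase that cuts after proline, had 0.25 (SE 0.09, adjusted p = 0.564 by edgeR). It was the 1 gene of the 19 whose diets did not overlap, where 1.65% of all genes did not. The collagen prolyl hydroxylase gene P3h1 had 0.29 (SE 0.14). Without deficient replicate 3, 1 gene of this list passed (5.26% of 19), where 0.123% of all genes did. Collagens, the proline-rich proteins of the matrix, lay above 0 in 7 of 15 genes tested (median -0.01). Col3a1 averaged 489 ± 218 and 578 ± 159 CPM (SD, n = 5 each), a log2 fold change of -0.24 with SE 0.30, Col6a1 had -0.20 (SE 0.24) and Col15a1 0.26 (SE 0.19). Without deficient replicate 3 the collagens were 12 higher of 15, and without the 3 libraries richest in muscle 3 of 15, so their direction turned with the libraries used. Fibroblast markers, summed over 10 genes with none at 0, ran from 2494 to 4213 CPM on the deficient diet, past both ends of the 2906 to 3726 CPM on the normal one, and their part in the collagen values was not tested.

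P5C synthase and Pycr1 draw on mitochondrial NADPH and NADH, and of 11 tested genes of mitochondrial NADPH supply 1 passed, Aldh1l2, where 0.0541% of all genes did. This folate enzyme, which releases NADPH, rose from 131 ± 24.1 to 341 ± 72.5 CPM (SD, n = 5 each), a log2 fold change of 1.38 with SE 0.18 (edgeR, adjusted p = 0.0158). The folate enzyme genes Mthfd2 and Mthfd2l had 0.45 (SE 0.21) and 0.39 (SE 0.21). The median of the list was 0.27, and 8 of 11 were positive, as were 50.3% of all genes. In the aldehyde dehydrogenase family, to which Aldh18a1 and Aldh4a1 belong, the other 14 tested members had a median of -0.08 with 5 positive, and Aldh1l2 was again the 1 that passed, against the same shares of all genes. Aldh3a1 had -0.80 (SE 0.46) and Aldh3b1 -0.31 (SE 0.22). Without deficient replicate 3 the median of the family was 0.03 with 8 positive.

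Targets of ATF4 in the amino acid response, leaving the members aside, were higher in 42 of 43 tested genes, with a median log2 fold change of 0.32 against 0.00 for all genes. Among them 1 passed over all genes, Aldh1l2. Unadjusted, 18 were higher at p under 0.05 by edgeR, 41.9% of 43 where 3.54% of all genes were. The list was chosen with earlier results of these tumours known, so its direction is no independent evidence. Beside it, erythroid markers stood at 56.3 to 106 CPM with arginine removed and 101 to 603 CPM otherwise, ranges that overlapped slightly, and their part was not tested. Asns, asparagine synthetase, averaged 528 ± 106 and 357 ± 23.1 CPM (SD, n = 5 each), a log2 fold change of 0.57 with SE 0.14 (edgeR, adjusted p = 0.283). Slc7a1, a carrier of arginine and lysine, had 0.52 (SE 0.14, adjusted p = 0.337 by edgeR). The diets did not overlap for 4 of the 43, Aldh1l2, Asns and Slc7a1 among them, where they did not for 1.65% of all genes. Without the 3 libraries richest in muscle, 4 of the list passed (9.30% of 43), where 0.139% of all genes did.

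Set beside the members tumour by tumour, the list had its own order. The median level of the list over the normal-diet mean, on the log2 scale, was 0.44, 0.67, -0.19, 0.23 and 0.54 in deficient replicates 1 to 5, and 0.03, -0.13, -0.04, -0.19 and 0.33 in normal-diet replicates 1 to 5. Deficient replicate 3 thus lay with the lowest normal-diet tumours, and normal-diet replicate 5 lay above deficient replicate 4. Aldh18a1 had the same 2 highest tumours as the list, deficient replicates 2 and 5, and deficient replicate 3 was its lowest deficient tumour as well. The list was lowest in deficient replicate 3 and normal-diet replicates 2 and 4, where the GC slopes were lowest (-0.48, -0.30 and -0.21). Both the list and Aldh18a1 had their highest normal-diet value in replicate 5, which had the highest slope (0.33). On the deficient diet the highest slope was in replicate 4 (0.17), not in 2 or 5. The part of GC content in this order was not tested. Pycr1 had 17.5 CPM in deficient replicate 3, close to its other deficient tumours, and 9.67 CPM in normal-diet replicate 5, close to its other normal-diet tumours. The diet comparison through which Pycr1 was chosen favours genes of small spread within a diet. Nothing is therefore read from how Pycr1 differs here from Aldh18a1 or the list.

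**Figure D4:**
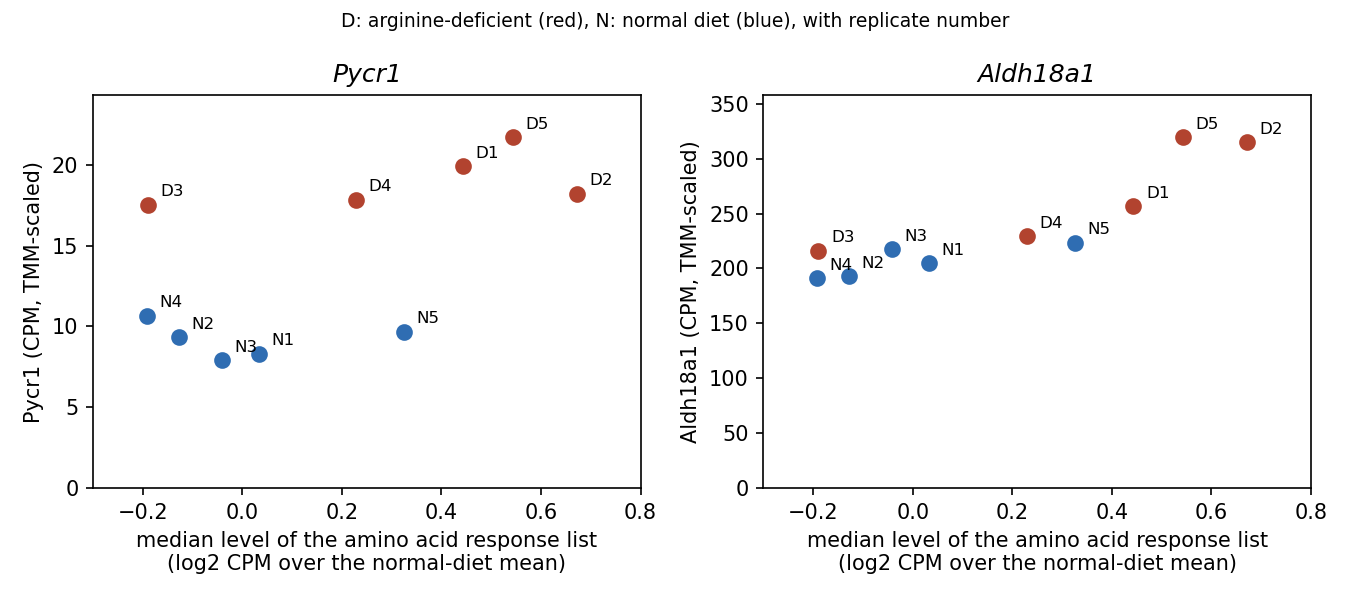
CPM of Pycr1 (left) and Aldh18a1 (right) against the median level of 43 amino acid response genes, 1 point per tumour. Pycr1, which was chosen through the diet comparison, lies in 2 bands, 1 for each diet, and nothing is read from them. Aldh18a1 is highest in D2 and D5, where the list stands at 0.67 and 0.54.

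Likeness to single genes was measured as well. Over the 10 tumours, in log2 CPM, the genes closest to Aldh18a1 of those averaging at least 2 CPM were Slc7a1 (Pearson r = 0.97), the glycogen synthase gene Gys1 (r = 0.95) and the stress gene Gadd45a (r = 0.95). Those closest to Pycr1 were the nucleolin gene Ncl (r = 0.97), Aldh1l2 (r = 0.96) and the cyclin gene Ccnd2 (r = 0.96), and those closest to Prodh were Abi3, Ogfod3 and Larp7 (r = 0.88, 0.88 and 0.85). Of the exonic bases of Abi3 92.2% lie inside another gene, and of Gadd45a 48.7%. These r are descriptions over 10 libraries that fall into 2 diets, picked as the highest of 11180 genes, and they carry no test.

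On deviations from each diet's mean, Slc7a1 was still among the 3 closest to Aldh18a1 (r = 0.93, with Cwc27 at 0.95 and Ddx42 at 0.92), whereas the 3 closest to Pycr1 were others, Atxn7l3b, Zfp57 and Nek3 (r = 0.88, 0.87 and 0.85). Cort, Spns3 and Larp7 were closest to Prodh (r = 0.94, 0.93 and 0.90). Aldh18a1 and Pycr1 had r = 0.73 with each other over the 10 tumours and r = 0.22 on the deviations.

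None of the genes next to Pycr1 passed the test. The 3 nearest tested genes on each side, chosen by distance alone, were Mafg, Sirt7 and Pcyt2 on one side and Aspscr1, Cenpx and Lrrc45 on the other. Their log2 fold changes ran from -0.35 (Pcyt2, SE 0.23) to 0.09 (Mafg, SE 0.16), with adjusted p of 0.899 and above by edgeR. Beside Aldh18a1, the neighbours Tctn3 and Entpd1 had 0.21 (SE 0.14) and 0.15 (SE 0.22).

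2 further lists hold target genes of regulators linked to these enzymes, MYC for the synthesis genes and p53 for Prodh. Of the genes of ribosome and nucleotide synthesis known as MYC targets, with Myc itself, 18 of 19 tested lay above 0 (median 0.24) and none passed. Of all genes 50.3% lay above 0. The median level of these 19 over the normal-diet mean, on the log2 scale, was -0.06 in deficient replicate 3. In normal-diet replicates 1 and 5 it was 0.20 and 0.14, so the diets overlapped. Ncl averaged 1721 ± 94.8 and 1318 ± 53.2 CPM (SD, n = 5 each), a log2 fold change of 0.39 with SE 0.11 (edgeR, adjusted p = 0.358). It was the 1 gene of these 19 whose diets did not overlap, where 1.65% of all genes did not. Gnl3 had 0.32 (SE 0.11) and Myc itself 0.45 (SE 0.16). Of the p53 targets 15 of 19 tested lay above 0 (median 0.22), against the same share of all genes, and none passed. Both lists were chosen with earlier results of these tumours known, so their direction is no independent evidence. Without the 3 libraries richest in muscle 1 of the p53 targets passed, where 0.139% of all genes did, and none of the MYC targets. In that fit 12 of 19 p53 targets and 18 of 19 MYC targets lay above 0, as did 5966 of 12940 genes. Eda2r had 0.50 (SE 0.15), Zmat3 0.29 (SE 0.09) and Sesn2, which ATF4 also drives, 0.64 (SE 0.21), with adjusted p of 0.443, 0.465 and 0.512 by edgeR. The diets did not overlap for 2 of the 19 p53 targets, Eda2r and Zmat3, where they did not for 1.65% of all genes. Unadjusted, 5 of the p53 targets and 3 of the MYC targets were higher at p under 0.05 by edgeR, 26.3% and 15.8%, where 3.54% of all genes were.

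**Figure D5:**
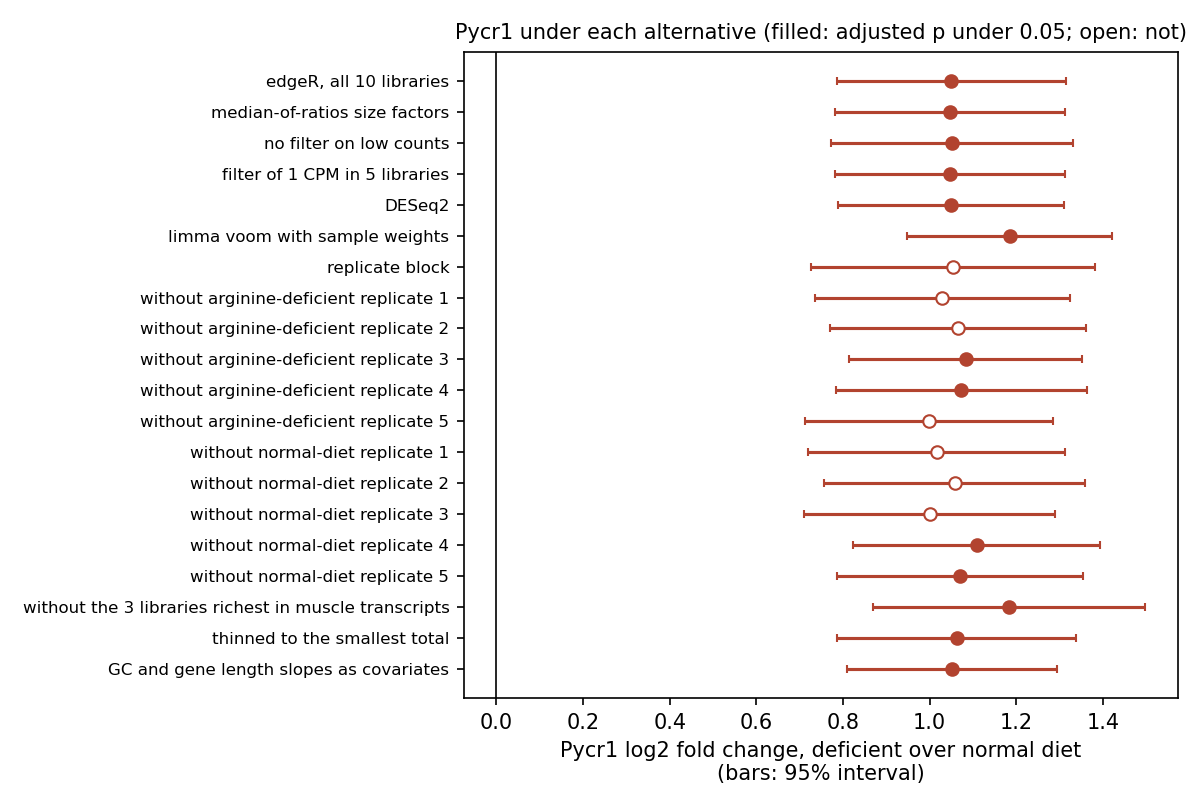
Pycr1 log2 fold change with 95% intervals under each way of fitting the diet comparison; filled points passed at adjusted p under 0.05. The value stays between 0.998 and 1.18 and every bar lies right of 0, while 7 of the 19 alternatives, shown open, did not pass.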

How the data were processed

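Total RNA of 10 tumours was isolated with TRIzol and read on Illumina platforms (per the labels' protocols). The deposited values are raw counts per gene, made by the authors with STAR and featureCounts on mm10 after FastQC, per the submitters' processing notes; the sources used here give no versions, strandedness or settings. Columns were matched to libraries by the number in each description. GENCODE M21 gave symbols for all but 33 identifiers. All pairs of libraries within a diet differed by more than sampling noise (lowest chi-square per degree of freedom 16.7).

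Diets were compared in edgeR 4.0.16 (R 4.3.3) by its quasi-likelihood test with TMM factors, filterByExpr (minimum count 10, minimum total 15) and the diet as the only term, adjusted by Benjamini-Hochberg over 12929 genes. Each standard error was derived from the log2 fold change and its F statistic, and 95% intervals from that by the normal distribution. RPKM used the union of exons. Members and gene lists were chosen with earlier results of these data known. Genes named beside the members were the tested related enzymes, up to 3 of smallest p averaging at least 2 CPM in each other list, and the 3 most alike to each member. Among 3 simulations of 200 changed genes on these 12929 genes, the diet test called 18.8% at a 1.5-fold change, 76.6% at 2-fold and 98.5% at 4-fold. Changed genes averaged at least 2 CPM, and counts were drawn independently for each gene and library at the trended dispersion. The simulated libraries held no GC slopes and no differences in muscle content, so these shares need not hold for the real ones. Alternatives used DESeq2 1.42.0, limma 3.58.1 and other filters, scalings and libraries. Results for some genes are not reported here.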

Additional observations from a re-analysis of the deposited data

Results flagged for a closer look

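Among 34 sets of 5 tumours, the members and related enzymes on each diet, 1 held a tumour far from the other four by Dixon's criterion, where chance alone marks about 1 in 20. Arg1, the arginase gene, stood at 288 CPM in deficient replicate 2. No member had such a tumour on either diet.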

How the results depend on the processing

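The log2 fold changes of Pycr1 (0.998 to 1.18), Aldh18a1 (0.30 to 0.51) and Prodh (0.19 to 0.43) kept their sign under all 19 alternatives. Pycr1 lost its call with the replicate block (1.05, adjusted p = 0.204 by edgeR) and in 6 of the 10 fits without 1 library, which gave 0.998 to 1.11. Same-numbered tumours of the diets did not deviate together (correlations -0.35 to 0.18), so the block rests on a shared number only. Aldh18a1 passed under limma voom with sample weights alone (0.43, adjusted p = 0.0487). Genes called went from 7 to 130 under DESeq2 (68 higher), 373 under limma voom with sample weights (205 higher), 1 with the replicate block, 18 without the 3 libraries richest in muscle, 68 with GC and gene length slopes as covariates and 0 to 16 without 1 library. Where the count was 0 (without normal-diet replicate 1 or 3), 787 and 568 genes had an unadjusted p under 0.05. The cause of these shifts in calls was not tested. The mean Prodh level was 0.481 RPKM by the longest transcript (4943 bases) and 0.305 RPKM by the union of exons (7797 bases), the same CPM divided by another length. Thinning to the smallest total changed no member's call. The 21 to 73 counts of Prodh limit what its comparison can show.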
